A study of Homo sapiens with 8 samples.

Results

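The genes described here encode NY-ESO-1, SSX, PNMA, CT45 antigens and 2 further X-linked tumour antigens. They are CTAG1B, CTAG2, SSX1, SSX2, SSX4, FMR1NB, PNMA5, PNMA3, CT45A1 and CT83, 10 of the 19942 protein-coding genes in the gene tables, and were taken by gene name from all 8 libraries. Members were named with the values of UF1hypo cells after UHRF1 knockdown in view, so their levels in that comparison, and in the difference between the lines that uses it, are given as a description with no p-value.

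The RNA came from HCT116, a colorectal cancer line of human origin, and UF1hypo, a clone of it in which exon 4 of 1 UHRF1 allele had been excised. Each line was infected with a lentivirus for the control hairpin shScr or for shUHRF1, which targets UHRF1, and kept as a puromycin-selected pool, which gave the groups HCT116 shScr, HCT116 shUHRF1, UF1hypo shScr and UF1hypo shUHRF1, each with 2 libraries. UF1hypo stands for a single clone, so that its heterozygous allele and any other property of the clone cannot be told apart, and the day of harvest of these pools was not given in the sources used here. No source states that the libraries of a group came from separate infections, and the p-values then measure only the spread between libraries, which may be technical.

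Cancer-testis antigens are proteins made in the germ cells of the testis and, after loss of silencing, in tumours, where T cells and antibodies can recognise them. In most somatic tissues their promoters carry DNA methylation at CpG sites. UHRF1 binds hemimethylated CpG sites after replication and recruits DNMT1, the enzyme that copies the methylation onto the new strand. CTAG1B encodes NY-ESO-1, an antigen used as a target of engineered T cells, and CTAG2 encodes its close homologue LAGE-1. The SSX genes encode nuclear proteins with a repressor domain, and SSX1, SSX2 and SSX4 are the partners fused to SS18 in synovial sarcoma. PNMA genes descend from the gag gene of a retrotransposon and include the Ma antigens of paraneoplastic neurological disease. CT45A1 belongs to a tandem array of nearly identical copies, FMR1NB lies next to FMR1 and encodes a membrane protein, and CT83 encodes the antigen KK-LC-1.

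All members lie on chromosome X (GRCh38, GENCODE 44). SSX1 (48255392 to 48267444, plus strand, 8 exons) and SSX4 (48383516 to 48393347, plus strand, 8 exons) are 116071 bases apart, and SSX2 (52696896 to 52707189, minus strand, 8 exons) lies in a separate group of SSX genes. CT83 (116461686 to 116462976, minus strand) has 2 exons, CT45A1 (135713639 to 135723539, plus strand) 5 exons and FMR1NB (147981337 to 148026665, plus strand) 6 exons. PNMA5 (152988824 to 152994116, minus strand, 4 exons) and PNMA3 (153056409 to 153060467, plus strand, 2 exons) are separated by 62292 bases. CTAG1B (154617609 to 154619282, minus strand) and CTAG2 (154651972 to 154653579, minus strand), each with 3 exons, lie 32689 bases apart.

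Promoter windows from RefSeq (GRCh38.p14), each from 250 bases before to 50 bases after an annotated start, were matched for 7 of the 10 members. CTAG1B, CTAG2 and FMR1NB had none. The 5 windows printed here are those of SSX1 and SSX4, the highest and the lowest SSX member, of PNMA5 and CT45A1, which also exceeded 10 TPM, and of CT83, which stayed near 0, with every CpG in capitals. They read 5′ to 3′ along the gene, at chrX:48255142-48255441 on the plus strand for SSX1, chrX:48383289-48383588 on the plus strand for SSX4, chrX:152994067-152994366 on the minus strand for PNMA5, chrX:135713389-135713688 on the plus strand for CT45A1 and chrX:116462927-116463226 on the minus strand for CT83.
SSX1: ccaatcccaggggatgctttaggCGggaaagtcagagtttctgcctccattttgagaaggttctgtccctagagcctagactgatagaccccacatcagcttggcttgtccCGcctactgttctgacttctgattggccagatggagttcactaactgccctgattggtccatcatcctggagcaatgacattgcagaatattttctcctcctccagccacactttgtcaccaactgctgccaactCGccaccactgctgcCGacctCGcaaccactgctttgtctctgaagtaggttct
SSX4: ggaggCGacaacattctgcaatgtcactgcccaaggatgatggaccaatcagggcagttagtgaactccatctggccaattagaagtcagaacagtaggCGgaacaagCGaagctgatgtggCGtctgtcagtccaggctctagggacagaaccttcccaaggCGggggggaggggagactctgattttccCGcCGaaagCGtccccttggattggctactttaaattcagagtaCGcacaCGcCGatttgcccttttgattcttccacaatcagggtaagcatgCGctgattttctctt
PNMA5: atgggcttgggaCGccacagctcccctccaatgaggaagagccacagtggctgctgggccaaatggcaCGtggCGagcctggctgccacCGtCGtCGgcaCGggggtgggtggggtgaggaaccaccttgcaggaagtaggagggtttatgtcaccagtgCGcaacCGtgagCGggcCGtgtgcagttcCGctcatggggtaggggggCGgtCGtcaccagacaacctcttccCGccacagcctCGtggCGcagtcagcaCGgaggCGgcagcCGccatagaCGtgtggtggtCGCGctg
CT45A1: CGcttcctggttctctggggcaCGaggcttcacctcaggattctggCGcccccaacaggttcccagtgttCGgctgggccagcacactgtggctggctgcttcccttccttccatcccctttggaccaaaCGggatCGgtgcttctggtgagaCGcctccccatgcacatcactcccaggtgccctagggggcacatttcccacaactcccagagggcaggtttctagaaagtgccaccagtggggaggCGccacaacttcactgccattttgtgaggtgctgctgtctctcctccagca
CT83: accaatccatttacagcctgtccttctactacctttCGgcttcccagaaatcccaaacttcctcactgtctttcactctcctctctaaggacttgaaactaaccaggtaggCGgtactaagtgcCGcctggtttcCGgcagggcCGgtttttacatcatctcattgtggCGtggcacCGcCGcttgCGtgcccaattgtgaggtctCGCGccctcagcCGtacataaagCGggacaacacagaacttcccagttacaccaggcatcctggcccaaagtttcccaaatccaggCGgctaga

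CpG content differed widely within the group. Over all 35116 windows of the table the median was 14 CpG, with quartiles of 4 and 28. SSX1 had 5 CpG, SSX4 12, and the annotated starts of SSX2 8 and 10. The PNMA5 window shown had 23, whereas its other annotated starts had 4 each, and PNMA3 had 41. CT45A1 held 8 and CT83 held 14. Among these windows the count of CpG did not order the genes by their listed level. PNMA3, with the most CpG, stayed below 1 TPM (transcripts per 1000000) in every library. SSX1, with the fewest among the starts of the SSX genes, was the highest of the 3 SSX members. Nearly all of the SSX2 and SSX4 transcript sequence recurs in other gene copies, as given below, so their low values carry uncertainty. Which annotated start a gene used was not measured.

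The SSX1 window is turned around relative to the others. Aligned against the windows of SSX2, SSX4 and 4 relatives, it matched only on the opposite strand, with 212 of 238 aligned bases identical for SSX2 (89.1%) and 189 of 216 for SSX4 (87.5%), while its best matches on the same strand were 9 to 12 bases long. SSX2 and SSX4 aligned with each other on the same strand, with 216 of 239 bases identical (90.4%). A run of 47 bases without a mismatch is shared by SSX1, SSX2 and SSX4 and is printed here in both orientations, since SSX1 reads it in one and the other 2 in the other. It begins at position −118 from the annotated start of SSX1, −171 from that of SSX2 and −217 from that of SSX4.
As read in SSX1: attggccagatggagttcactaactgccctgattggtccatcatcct
As read in SSX2 and SSX4: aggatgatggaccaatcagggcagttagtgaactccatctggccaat
Each of 4 short motifs, chosen with the sequences in view, was searched on both strands. CCAAT, present at least once in 34.6% of all windows, occurred 3 times in each window of SSX1, SSX2 and SSX4. It also occurred 2 times in CT83, once in PNMA3, once in the PNMA5 window shown and 2 times in each other PNMA5 window. GGGCGG, present in 45.0% of all windows, occurred 3 times in PNMA3, once in the PNMA5 window shown, and not in the SSX, CT45A1 or CT83 windows. CCGGAA, found in 17.2% of windows, occurred only in CT83 among the 7 members with a window, and CACGTG, found in 7.26%, in PNMA3 and the PNMA5 window shown. CT45A1 held none of the 4.

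Library depth, recovered as aligned bases from the ratio of coverage to FPKM, ran from 5.42 to 7.83 gigabases. The replicates of a group correlated on the log2(TPM + 1) scale with Pearson's r of 0.995 to 0.996 over genes, except for UF1hypo shUHRF1 with 0.979. UHRF1 itself had 87.5 and 98.4 TPM with shScr and 31.7 and 32.7 with shUHRF1 in HCT116. In UF1hypo it had 47.3 and 50.6 with shScr against 34.1 and 21.1 with shUHRF1. UHRF1 RNA in UF1hypo shUHRF1 thus overlapped with that in HCT116 shUHRF1. This holds for RNA summed over a gene and does not give the amount of UHRF1 protein. By Western blot the paper reported less UHRF1 protein in UF1hypo than in HCT116, and a sharp further loss on knockdown in UF1hypo. The shUHRF1 libraries lay below the shScr libraries in both lines, by a log2 difference of −1.50 in HCT116 (limma, adjusted p = 0.0564) and −0.84 in UF1hypo (adjusted p = 0.0406), and neither passed the call. Of 7 epithelial and intestinal markers, 6 exceeded 1 TPM in every library, whereas VIL1, the microvillus protein villin, did not exceed 0.142.

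In UF1hypo shUHRF1, 5 members were clearly present, with CTAG2 and PNMA5 far above the rest. TPM is scaled per length, so levels can be set beside each other between genes. All 10 members together reached 384 and 301 TPM in these libraries, where CTAG2 took 58.1% and 53.1% of the sum and PNMA5 27.3% and 27.7%. Elsewhere the sum was 0.125 to 0.821 for HCT116 shScr, 1.44 to 1.78 for HCT116 shUHRF1 and 0.946 to 1.63 for UF1hypo shScr. Fewer cells that make a transcript and less of it per cell cannot be told apart in these bulk libraries.

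CTAG2, the LAGE-1 gene, was listed at 0 in both HCT116 shScr libraries. Its TPM was 0.810 and 0.446 for HCT116 shUHRF1, 1.31 and 0.227 for UF1hypo shScr, and 223 and 160 for UF1hypo shUHRF1 (191 ± 44.7, SD, n = 2). The last group stood above all other libraries and placed CTAG2 at rank 840 of 19942 protein-coding genes by mean level. Its mean per-base read coverage was 590 and 395 there, against 3.35 or less in every other library. CTAG1B, the NY-ESO-1 gene, was listed at 0 in all 8 libraries, as was CTAG1A, its second copy 30792 bases away. Every 50-base stretch of the CTAG1B transcript also occurs in CTAG1A, and 51.5% of those of CTAG2 occur in both. How reads with several matching positions were assigned is not given in the sources used here, so the zero of CTAG1B and the exact level of CTAG2 carry that uncertainty.

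SSX1 was the only SSX member above 1 TPM in any library. It read 0 and 0.576 TPM for HCT116 shScr, 0.740 and 0.767 for HCT116 shUHRF1, 0.179 and 0.493 for UF1hypo shScr, and 10.7 and 13.1 for UF1hypo shUHRF1 (11.9 ± 1.70, SD, n = 2; coverage 34.9 and 39.6). Low SSX1 values in the first 3 groups overlapped in part, and the UF1hypo shUHRF1 libraries lay apart from all of them. SSX2 was listed at 0 except in UF1hypo shUHRF1, with 0.796 and 0.217 TPM, and SSX4 was listed at 0 everywhere. All 50-base stretches of SSX2 recur in SSX2B and 99.7% of those of SSX4 in SSX4B, against 11.6% of those of SSX1 in any other gene. SSX2B had 0.600 and 0.402 TPM in UF1hypo shUHRF1 and 0 elsewhere, so that how reads divide between SSX2 and SSX2B is uncertain.

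FMR1NB had the closest agreement between libraries among the members above 1 TPM, with 31.5 and 29.9 TPM in UF1hypo shUHRF1 (30.7 ± 1.1, SD, n = 2; coverage 90.7 and 79.6). It was listed at 0 in both shScr groups and had 0.173 and 0.228 TPM in HCT116 shUHRF1. None of its 50-base stretches occurs in another gene.

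PNMA5 had the second-highest level of the members. Its values were 0.0724 and 0 TPM with HCT116 shScr, 0 in both HCT116 shUHRF1 libraries, 0 and 0.0666 with UF1hypo shScr, and 105 and 83.3 with UF1hypo shUHRF1 (94.0 ± 15.1, SD, n = 2; coverage 316 and 233). No 50-base stretch of PNMA5 is shared with another gene, and it ranked 1968 of 19942. PNMA3, its neighbour in the PNMA group, had 0.0523 and 0 TPM for HCT116 shScr, 0.0537 and 0 for HCT116 shUHRF1, 0.146 and 0.159 for UF1hypo shScr, and 0.455 and 0.0338 for UF1hypo shUHRF1. The last pair straddled the UF1hypo shScr values, so PNMA3 overlapped between these groups.

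CT45A1 had 12.7 and 14.4 TPM in UF1hypo shUHRF1 (13.6 ± 1.2, SD, n = 2; coverage 39.0 and 32.2). Elsewhere it was listed at 0, apart from 0.245 TPM in replicate 2 of HCT116 shScr. Since 89.0% of its 50-base stretches recur in other genes, mainly CT45A3 with 87.0%, the value may include reads of other copies. CT83 was listed at 0 in 7 libraries and had 0.193 TPM in replicate 2 of UF1hypo shUHRF1.

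Ordered by mean TPM in UF1hypo shUHRF1, CTAG2 was 2.04 times PNMA5, PNMA5 3.06 times FMR1NB and FMR1NB 2.26 times CT45A1, with no overlap of libraries between these neighbours. CT45A1 and SSX1 overlapped, at ranks 8074 and 8459, and FMR1NB stood at rank 5171. SSX1 was 23.6 times SSX2, without overlap. SSX2 overlapped with PNMA3, and PNMA3 with CT83. CTAG2 and PNMA5 in replicate 1 were 1.40 and 1.26 times their level in replicate 2, while SSX1 and CT45A1 were 0.817 and 0.882 times theirs, so the replicates did not differ by a common factor.

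**Figure D1:**
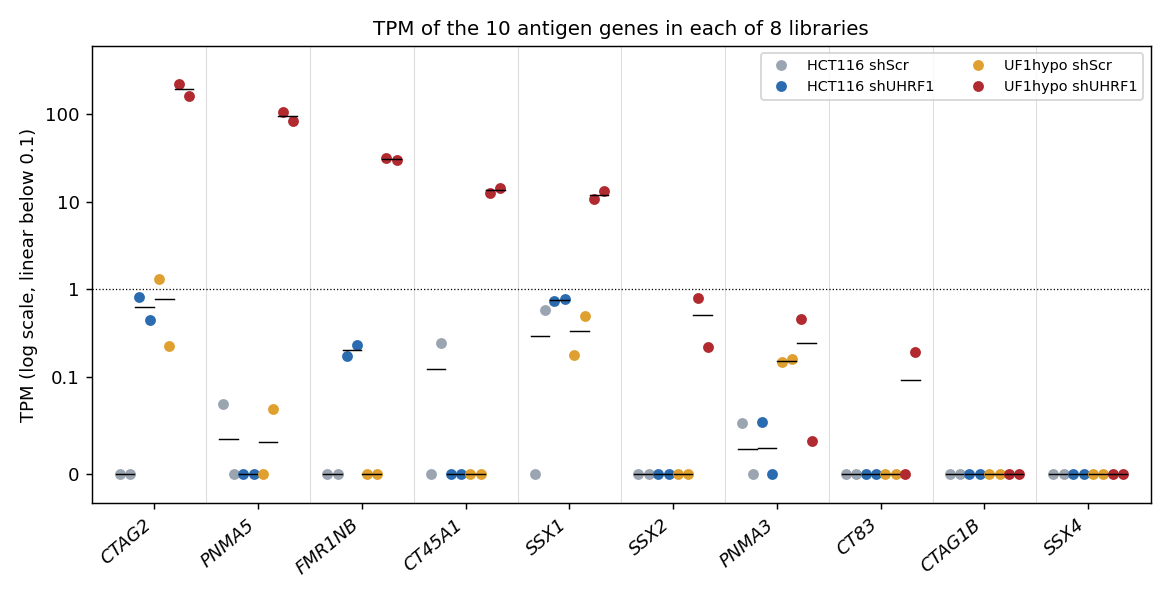
TPM of each member in each of the 8 libraries (y axis, log scale above 0.1 and linear below; points are libraries, bars group means, n = 2 a group; the dotted line marks 1 TPM). CTAG2, PNMA5, FMR1NB, CT45A1 and SSX1 lie above 10 TPM in both UF1hypo shUHRF1 libraries and no member exceeds 1.31 TPM in any other group.

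Knockdown in UF1hypo asked how gene expression responded when UHRF1, already reduced in the clone, was lowered further. Values here are differences of mean log2(TPM + 1), shUHRF1 minus shScr, from a limma fit over all 8 libraries. They were 6.82 for CTAG2 (standard error 0.323), 6.51 for PNMA5 (0.205), 4.99 for FMR1NB (0.186), 3.86 for CT45A1 (0.203) and 3.28 for SSX1 (0.267). Both shUHRF1 libraries lay above both shScr libraries for each of these genes and for SSX2, whose difference was 0.56, 6 of the 10 members in all, as they did for 30.6% of the tested genes. CT83 (0.13) and PNMA3 (0.09) overlapped, and CTAG1B and SSX4 gave no value above 0.

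A gene was tested where it passed 1 TPM in a library of the contrast, and called at an adjusted p-value below 0.05 with an absolute log2 difference above 1. In UF1hypo 5 of the 10 members were tested and all 5 were called higher, beside 7.39% of the 13620 tested genes and 14.2% of the 457 tested genes on chromosome X. Nothing is read from that count, because the members were chosen on this contrast. All tested members except CTAG2 also passed the filter only through the group where they were high. CTAG2 passed it in UF1hypo shScr as well, with 1.31 TPM in replicate 1. The lowest maximum among tested members was 13.1 TPM (SSX1) and the highest among those not tested was 0.796 TPM (SSX2). Over all 10 members, tested or not, the median difference was 1.92, and over all tested genes it was 0.04. These sets are unlike, since only the second is limited by the filter, and the members were chosen on this contrast. Nothing is read from the 2 medians.

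In HCT116, knockdown of UHRF1 left every member below 1 TPM, and none of the 10 was tested, with 0.0472% of 12704 genes called higher. Without the filter, 6 members had a p-value and 0 of them had an unadjusted limma p below 0.05. With the filter, 6.38% of the tested genes had one, a share from another fit and a gene set without members. CTAG2 had a log2 difference of 0.69 (unadjusted p = 0.0788, adjusted p = 0.853), SSX1 0.48 (0.0913 and 0.876) and FMR1NB 0.26 (0.0762 and 0.848). These 3 genes, and no other member, were higher in both shUHRF1 libraries than in both shScr libraries, which was also so for 16.3% of the 3496 protein-coding genes above 0 and at most 1 TPM in the 4 libraries, and for 20.1% of the tested genes. PNMA5 was listed at 0 and CT45A1 was at 0 in both HCT116 shUHRF1 libraries, with differences of −0.05 and −0.16 that overlapped between groups. No member had coverage above 2.78 in HCT116 libraries of 5.42 to 7.70 gigabases, against 32.2 to 590 for the 5 members above 1 TPM in UF1hypo shUHRF1 at 6.84 to 7.83 gigabases. Differences among values this close to 0 were not resolved. The median over the 10 members, none of them tested, was 0, and that over all tested genes was −0.03.

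The knockdown effect in UF1hypo exceeded that in HCT116 by 6.56 on the log2 scale for PNMA5, 6.12 for CTAG2, 4.72 for FMR1NB, 4.02 for CT45A1 and 2.80 for SSX1. All 5 were called, beside 4.54% of 13781 genes with the higher effect in UF1hypo, and nothing is read from that, since these values contain the contrast on which members were chosen. The genes called in either direction numbered 702 and ranged from 171 without replicate 2 of HCT116 shUHRF1 to 2142 without replicate 2 of UF1hypo shUHRF1. Under a pseudocount of 0.1 in place of 1 the call of SSX1 was lost, with a difference of 3.17.

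The clone was also compared with its parent line under the control hairpin, a comparison that shares its libraries with both knockdown contrasts. CTAG2 was the only member tested, at a log2 difference of 0.75 (limma, standard error 0.324), and 0 members were called, beside 2.59% of 12856 genes called higher. It passed the filter only through replicate 1 of UF1hypo shScr (1.31 TPM), the group where it was higher. Its difference is therefore a description with no p-value. CTAG2 was higher in 2 of 2 UF1hypo libraries, as were 29.1% of tested genes. With a pseudocount of 0.1 CTAG2 was called, at a difference of 2.76, and for the same reason nothing is read from that call. PNMA3 was the other member higher in both UF1hypo shScr libraries, at a difference of 0.17 with every value at or below 0.159 TPM. SSX1 (0.08), CT45A1 (−0.16) and PNMA5 (0.00) overlapped between the lines.

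Of 25 relatives by symbol in the NY-ESO-1, SSX, PNMA and CT45 families, 7 were tested in UF1hypo and 5 were called higher on knockdown, none lower, beside 7.39% of all tested genes called higher. The list was drawn up with results of these data known, and PNMA6E, CT45A10, SSX3 and PNMA2 passed the filter only through UF1hypo shUHRF1, where they were high, so the count is a description and nothing is read from it. In HCT116 3 relatives were tested and 0 called by limma, beside 0.0708% of 12704 tested genes called in either direction. An unadjusted p below 0.05 was reached by 1 of the 3 and by 6.38% of tested genes. With 3 genes, nothing is read from these counts. The median over all 25 was 0 in both lines.

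PNMA6E, an X-linked PNMA gene, had 25.1 and 19.8 TPM in UF1hypo shUHRF1 and at most 0.171 in any other library (log2 difference 4.52, standard error 0.206). Its knockdown effect in UF1hypo exceeded that in HCT116 by 4.39. PNMA2, an Ma antigen gene on chromosome 8, had 2.28 and 2.88 TPM against 0.459 and 0.698 in UF1hypo shScr (1.18, standard error 0.211). ZCCHC12, a zinc-knuckle member of the PNMA family, had 2.27 and 4.28 TPM (1.04, limma, adjusted p = 0.0316). PNMA2 and ZCCHC12 lay close to the threshold, and both calls were lost without replicate 1 of UF1hypo shScr. The call of ZCCHC12 was also lost without replicate 2 of either UF1hypo group, with a difference of 0.69 without that of shUHRF1.

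PNMA1 and MOAP1 were expressed in every library and not called in either line. PNMA1, another Ma antigen gene, went from 54.0 and 52.5 TPM with shScr to 37.4 and 36.6 with shUHRF1 in HCT116, but from 35.2 and 35.8 to 49.8 and 49.1 in UF1hypo. The groups did not overlap in either line, yet the directions were opposite, −0.51 in HCT116 (limma, adjusted p = 0.399) and 0.46 in UF1hypo (adjusted p = 0.0702). The difference between the lines was 0.98 (adjusted p = 0.0322), below the fold required for a call. Its adjusted p rose above 0.05 under 8 of 19 alternatives, to 0.0771 with the replicate block, 0.0574 with median-ratio scaling, and 0.127 to 0.187 when any 1 of the HCT116 or UF1hypo shScr libraries was left out. MOAP1, which encodes a binding partner of BAX, ranged from 13.6 to 19.6 TPM and its difference in UF1hypo was −0.02 (standard error 0.209).

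In the CT45 array, CT45A1 and CT45A10 are the outermost genes at 135713639 and 135893444, and the 7 copies between them were listed at 0 in every library. CT45A10 had 6.32 and 9.61 TPM in UF1hypo shUHRF1 (log2 difference 3.02, standard error 0.233), and 68.4% of its 50-base stretches recur in other genes. Its promoter windows held 18 and 9 CpG, and the second was identical to the CT45A1 window at 284 of 297 aligned bases (95.6%). The window of CT45A7, one of the copies listed at 0, was as close, with 274 of 286 bases identical (95.8%). CT45A10 shares 62.3% of its 50-base stretches with CT45A7. How reads with several matching positions were assigned is not given in the sources used here. The zeros of the 7 copies, and the levels of CT45A1 and CT45A10, carry that uncertainty. Among the SSX relatives, SSX3 had 1.82 and 0.769 TPM in UF1hypo shUHRF1 (1.16, standard error 0.292), and its call was lost without either UF1hypo shScr library. SSX5 had 0.255 and 0.425 TPM there, and SSX4B and SSX7 were listed at 0 throughout.

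**Figure D2:**
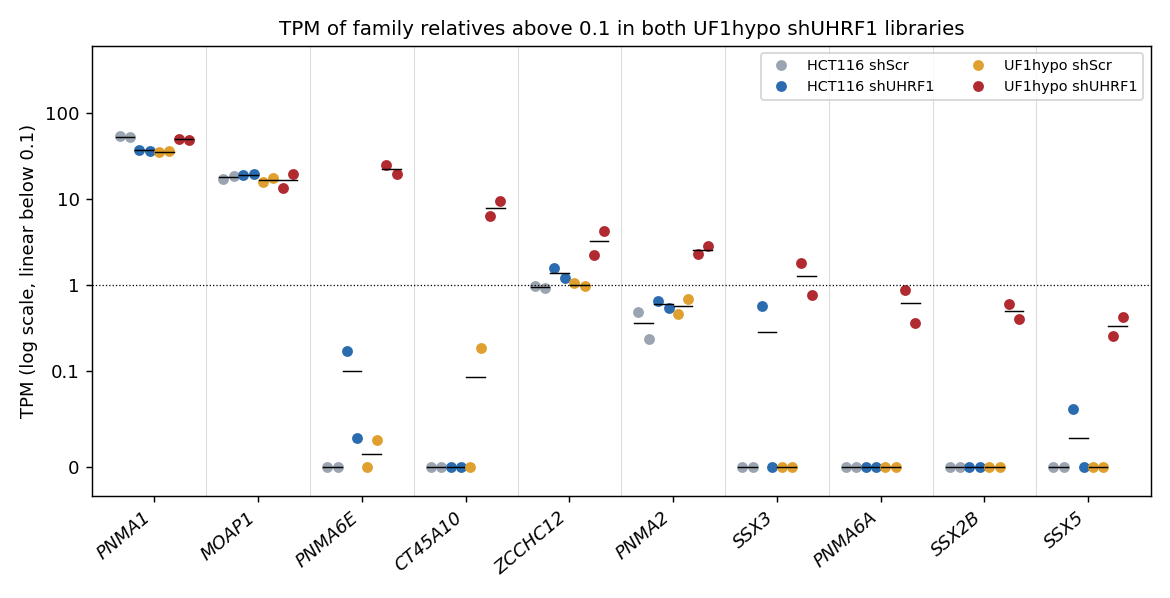
TPM of the relatives above 0.1 TPM in both UF1hypo shUHRF1 libraries, in each of the 8 libraries (y axis, log scale above 0.1 and linear below; points are libraries, bars group means, n = 2 a group; the dotted line marks 1 TPM). PNMA6E and CT45A10 separate from the other groups, the PNMA1 means differ in opposite directions in the lines, by −0.51 in HCT116 and 0.46 in UF1hypo, and MOAP1 overlaps in UF1hypo.

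The nearest protein-coding genes on either side, leaving out members and relatives, came to 14 different genes, of which 9 were tested in UF1hypo, 2 were called higher and 0 lower on knockdown, beside 7.39% of all tested genes and 14.2% of those on chromosome X called higher. With 9 genes, no difference from these shares is read. FMR1, 30211 bases from FMR1NB, had 32.7 and 25.7 TPM with UF1hypo shScr against 20.3 and 53.5 with UF1hypo shUHRF1 (0.19, limma, adjusted p = 0.786), with replicate 2 high and replicate 1 low. ZNF185, 15343 bases from PNMA5, had 18.0 and 21.1 TPM against 32.9 and 27.0 (0.59, adjusted p = 0.0805). GAB3, 21669 bases from CTAG2, had 1.23 TPM or less (0.47, adjusted p = 0.246), and SLC38A5, an amino acid transporter gene 191092 bases from SSX1, had 43.1 TPM or more in every library (0.28, adjusted p = 0.336).

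Both called neighbours were antigen genes themselves. MAGEA1, a cancer-testis gene of the MAGE family that lies 185167 bases from PNMA5 and 118816 bases from PNMA3, rose from 0.962 and 1.14 TPM to 99.1 and 97.2 in UF1hypo (5.60, limma, adjusted p = 3.3e-06). SAGE1, another cancer-testis gene, 165665 bases from CT45A1, rose from 0 to 4.19 and 5.10 TPM (2.49). SAGE1 passed the filter only through UF1hypo shUHRF1, where it was high, so its difference is a description with no p-value. SLC6A14, 227 bases from CT83, was listed at 0 in all libraries, as was SPACA5B beside SSX1.

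**Figure D3:**
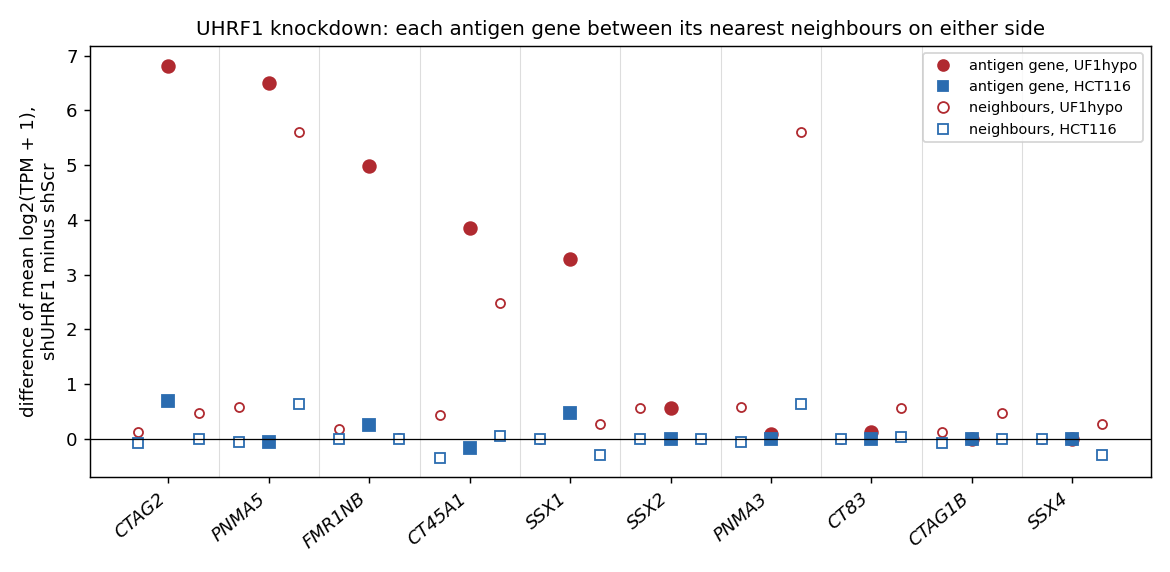
Differences of mean log2(TPM + 1), shUHRF1 minus shScr, for each member (filled) and its nearest protein-coding neighbour on the left and right (open), in UF1hypo (red circles) and HCT116 (blue squares). Among neighbours, only MAGEA1 (5.60), beside both PNMA5 and PNMA3, and SAGE1 (2.49), beside CT45A1, exceed 1.

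The genes closest in pattern were found by Euclidean distance of log2(TPM + 1) over the 8 libraries among 13780 genes, as a description. CTAG2 was closest to SLC15A3 (distance 1.42), KRT17 (1.54) and MAGEA1 (1.60). PNMA5 had KRT17 (0.913), SLC15A3 (1.32) and GPX3 (1.52) as its nearest genes, and KRT17 reached a mean of 117 TPM in UF1hypo shUHRF1 against 0.445 in UF1hypo shScr. SSX1 was nearest to QPRT (0.742), ACSBG1 (0.790) and TMEM88B (0.863). CT45A1 was nearest to RTP4 (0.380) and to the cancer-testis genes GAGE10 (0.495) and PASD1 (0.501).

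Regulators of methylation, CTCFL and markers of other cell types were read beside the members. CTCFL, the testis paralogue of CTCF, was listed at 0 in the other 6 libraries and had 8.86 and 11.3 TPM in UF1hypo shUHRF1 (3.46, standard error 0.199). It passed the filter only through that group, where it was high, so the difference is a description with no p-value. DNMT1 (0.28, limma, adjusted p = 0.278), DNMT3A (0.08, adjusted p = 0.856) and DNMT3B (0.51, adjusted p = 0.122) were not called on knockdown in UF1hypo. Under shScr, UF1hypo differed from HCT116 by −0.27 for DNMT1 (limma, adjusted p = 0.407) and 0.14 for DNMT3A (0.791). For DNMT3B the difference was −0.74 (0.0655), and none of these genes was called. Of 12 germ cell markers, 7 were at 0 in both UF1hypo shUHRF1 libraries and 1 above 1 TPM in both. Their sum was 2.86 to 6.23 TPM there against 0.613 to 1.28 in the other groups. TEX101, a germ cell surface protein gene, had 4.05 and 1.57 TPM in UF1hypo shUHRF1 and at most 0.0624 elsewhere, and NANOS3 had 1.72 and 0.383 there and at most 0.519 elsewhere. SYCP1, PRM1, PRM2, TNP1 and DPPA3 were at 0 in every library, and DDX4 did not exceed 0.122.

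Summed leukocyte markers also differed between groups, at 82.9 to 116 TPM in UF1hypo shUHRF1 and 42.7 to 44.7 in UF1hypo shScr. In HCT116 the sum was lower with shUHRF1, at 8.37 to 9.62 TPM against 14.6 to 15.9 with shScr. CD68, which encodes a lysosomal protein, made up most of the sum in each group. It had 107 and 77.7 TPM in UF1hypo shUHRF1, 40.6 and 42.6 in UF1hypo shScr, and 6.27 to 13.7 in HCT116. CD3D, a T cell receptor subunit gene, had 5.05 and 2.99 TPM in UF1hypo shUHRF1. CD68 and CD3D were the 2 of 12 markers above 1 TPM in both libraries of that group. CD3D did not exceed 0.349 TPM elsewhere, CD79A was highest in UF1hypo shScr at 1.61 and 0.714, and PTPRC, which encodes CD45, did not exceed 0.0728 in any library. The sum of 7 fibroblast markers was 43.3 to 72.0 TPM in UF1hypo shUHRF1 and 21.3 to 28.9 in the other groups. COL1A1 had 65.5 and 37.7 TPM and THY1 5.72 and 4.93 in UF1hypo shUHRF1, against at most 28.5 and 0.127 elsewhere, while LUM was at 0 and DCN not above 0.0316. The part of the germ cell, leukocyte and fibroblast sums in the levels of the members was not tested.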

How the data were processed

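Gene expression was measured by paired-end RNA-seq of polyA RNA in 8 libraries, 2 in each of 4 groups taken from the titles. Reads were trimmed by the authors (Fastp), mapped to GRCh38 (HISAT2 2.0.4) and summarised per gene (StringTie 2.1.4). As deposited by the authors, the coverage is StringTie's mean read depth per base of a gene, not scaled for library size. FPKM values were scaled by the authors for gene length and library size, and TPM values for gene length and to 1000000 in each library. The tables give no read counts, so the depth behind a single gene is known only as coverage, no counting interval was formed, and DESeq2, the count test of the authors, was left out.

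Of 60649 gene identifiers, 60463 were found in GENCODE 44 and 19942 were protein-coding. log2(TPM + 1) of all libraries entered 1 limma 3.58.1 fit (R 4.3.3) with group as its only term, 4 residual degrees of freedom and a mean-variance trend. Genes above 1 TPM in a library of a contrast were tested, adjusted by Benjamini-Hochberg over all of them, and called at an adjusted p-value below 0.05 and an absolute log2 difference above 1. A log2(TPM + 1) difference understates the change of low genes. The smallest two-sided exact permutation p that 2 libraries against 2 allow for 1 gene is 0.33. The fit was tested on simulated data.

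The members and lists were chosen with earlier results of these data known. The genes named are the members, their family relatives by symbol, the nearest protein-coding gene on each side, UHRF1, DNMT1, DNMT3A, DNMT3B, CTCFL and the 3 nearest patterns of CTAG2, SSX1, PNMA5 and CT45A1. Shared sequence is the percentage of 50-base windows of a transcript found in transcripts of other genes. Promoter windows came from RefSeq and were aligned locally with Biopython 1.88. Python 3.11.15, numpy 2.4.6, pandas 2.3.3 and matplotlib 3.10.9 were used. The alternatives were a pseudocount of 0.1, no filter, a filter on the mean, all annotated genes, a fit on each contrast's own libraries, FPKM, median-ratio scaling, quantile normalization, no trend, the largest row of a gene, a replicate block, and each library left out. DNA methylation was not analysed here.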

Additional observations from a re-analysis of the deposited data

Results flagged for a closer look

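For 5 members the difference between the knockdown effects, UF1hypo minus HCT116 on the log2 scale, was listed because it was large: 6.56 for PNMA5, 6.12 for CTAG2, 4.72 for FMR1NB, 4.02 for CT45A1 and 2.80 for SSX1. The members were chosen on the UF1hypo contrast, which this difference contains, so its test has no bearing here and the values are a description.

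PNMA1, a relative of the members, moved in opposite directions, with every shUHRF1 library above the shScr libraries in UF1hypo and below them in HCT116. The difference of the effects was 0.98 (limma, adjusted p = 0.0322, 2 libraries a group), and it ranged from 0.85 to 1.00 over 19 alternatives. The adjusted p was above 0.05 in 8 of the 19, among them the replicate block (0.0771) and 6 fits that left out 1 library (0.127 to 0.187).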

How the results depend on the processing

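The number of members called was 5 on knockdown in UF1hypo under the 16 alternatives, a count that rests on the contrast used to choose them. In HCT116 it was 0, where no member was tested except without the TPM filter (6 tested), so that neither count speaks to stability. For the difference of the effects it stayed within 1.5 times under all 19, at 4 with a pseudocount of 0.1, where SSX1 was lost. In UF1hypo shScr against HCT116 shScr the count rose from 0 to 1 (CTAG2) with a pseudocount of 0.1, since the difference of a gene near 0 depends on the value added, and stayed at 0 under the other 14, where CTAG2 was not tested in every fit. Over the alternatives the UF1hypo difference of the members ran from 5.95 to 8.12 for CTAG2, 5.33 to 9.50 for PNMA5, 3.82 to 8.27 for FMR1NB, 2.76 to 7.09 for CT45A1 and 2.41 to 4.88 for SSX1. Counts over all genes moved more: 1162 were called in UF1hypo and 563 to 2255 under the alternatives, 9 in HCT116 and 0 to 89, 702 for the difference and 171 to 2142, and 455 between the lines under shScr and 149 to 585. Of the relatives, SSX3 lost its call under 5 of 13 alternatives, PNMA2 under 4 of 16 and ZCCHC12 under 9 of 16, and PNMA6E and CT45A10 under none. PNMA1 reached an adjusted p of 0.0233 in HCT116 with the libraries of that line alone.

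With the replicate number as a block, 5 members were called in UF1hypo, 5 for the difference, 0 in HCT116 and 0 between the lines under shScr. The numbers did not pair the libraries: replicate differences correlated over 13781 genes at −0.402 between the UF1hypo groups and from −0.0292 to 0.0547 between the others. With the pairing of the UF1hypo groups crossed, an alternative chosen after seeing the data, 5 and 5 members were called. With 2 libraries a group, no read counts and shared sequence among CTAG1B, SSX2, SSX4, CT45A1 and their copies, a value below 1 TPM separates little from 0.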
